A study of Mus musculus with 6 samples.

Results

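The 35 genes described here encode the glycolytic enzymes, the sugar and lactate carriers and the hypoxia response genes named on a fixed list, and they were found by symbol among the 27634 genes of the deposited table. All 35 were in the table. Of these, 34 passed the count filter of the high experiment, and 33 had enough counts for ratios across all 6 libraries. Aldoa failed both filters and Gapdh the second, as described with the lower glycolytic enzymes.

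RNA came from cells labelled cancer-associated dendritic cells, taken from C57BL/6 mice with ID8-Defb29/Vegf-a tumours. ID8 is a mouse ovarian cancer line, and the sample records give days 32 to 38 for the treatment. All mice, controls included, carried this tumour and received 100 µg of siRNA in rhodamine-conjugated polyethylenimine nanocomplexes, either Non-Targeting (NT) or against Satb1, which encodes a chromatin organiser. The labels separate a high experiment, with strong loss of Satb1 and 2 libraries per siRNA, from a low experiment, with weak loss and 1 library per siRNA. The siRNA was given to the animals rather than to isolated cells. The sources used here do not name mouse age, the cell sort or any pooling of mice.

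Glycolysis splits glucose into pyruvate, and lactate dehydrogenase and a lactate carrier remove the product when it is not burned in mitochondria. The factor HIF-1, whose alpha subunit is made by Hif1a, binds DNA at a short ACGTG core and switches on many of these genes; prolyl hydroxylases that need oxygen mark the alpha subunit for destruction, so that it builds up in hypoxia and, in myeloid cells, also during inflammatory activation. Tumours are often poor in oxygen, and macrophages and dendritic cells are known to raise glycolysis when activated.

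Satb1 itself had 1233 and 1193 counts in the high experiment's NT libraries, 184 and 200 in its Satb1 siRNA libraries, 170 in the low experiment's NT library and 165 in its Satb1 siRNA library. It fell in the high experiment (log2 fold change -2.25, SE 0.072, edgeR adjusted p = 1.74e-39). After TMM, a scaling for library composition, the Satb1 ratio of the low experiment was 0.835, with a 95% counting interval from 0.67 to 1.04. By the authors' FPKM (relative to gene length and library size) the order turned there, with 0.98 for NT siRNA and 1.04 for Satb1 siRNA. The direction of Satb1 in the low experiment therefore depended on the scaling. Total counts were 24553454 to 71272720 per library. The repeats of each high group were almost copies: only 59 of 21413 genes differed between the NT repeats and 89 of 21409 between the Satb1 siRNA repeats, while 11757 of 21689 differed between the first libraries of the siRNAs. Each high group was therefore counted as 1 sample, and each SE and p below compares these libraries and not the conditions. Markers of both macrophages and dendritic cells were found in every library, at very different levels. Among macrophage markers Csf1r was at 425 to 1726 CPM (counts relative to library size) and Timd4 at 4.23 to 53.6, and among dendritic cell markers H2-Ab1 was at 95.3 to 1705 CPM, Zbtb46 at 4.78 to 24.5 and Flt3 at 0.875 to 41.5. As the libraries are bulk RNA, fewer cells of a type and less RNA per cell cannot be told apart.

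Promoter sequence was read for the members from the RefSeq table of the mouse build GRCm38.p6, which covers 250 bases before to 50 bases after each start. It held 47 windows for 33 of the 35 members, Ero1l under its current symbol Ero1a. The core ACGTG, searched on both strands, was in 27 of 47 windows (57.4%), and in 19.6% of all 32851 windows. GCGTG, the other form of the core, was in 25 windows (53.2%, and 32.4% of all). CACGTG, the E-box that Myc, Max and Mxi1 recognise, contains ACGTG on both strands; it was in 10.6% of member windows and 7.15% of all. Base composition was not matched between these sets. Gys1, Tpi1, Eno1, Pfkp and Adm, at least 1.5-fold lower in the high experiment, had no ACGTG in their windows. The stretches below show where the core lies in some members that have it. Each is upstream of the start and printed 5′ to 3′ on the gene's strand, with capitals marking ACGTG or its reverse complement CACGT.
Slc16a3 (chr11:120948987-120949066, plus strand): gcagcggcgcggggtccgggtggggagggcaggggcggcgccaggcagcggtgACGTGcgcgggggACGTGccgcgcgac
Slc2a1 (chr4:119108665-119108744, plus strand): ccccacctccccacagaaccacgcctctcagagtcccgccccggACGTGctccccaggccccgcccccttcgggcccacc
Ldha (chr7:46845655-46845784, plus strand): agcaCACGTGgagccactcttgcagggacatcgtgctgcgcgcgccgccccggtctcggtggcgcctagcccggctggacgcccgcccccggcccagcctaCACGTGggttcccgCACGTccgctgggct
Pgam1 (chr19:41911717-41911796, plus strand): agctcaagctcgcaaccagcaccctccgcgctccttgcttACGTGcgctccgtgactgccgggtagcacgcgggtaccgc
Hk3 (chr13:55021502-55021581, minus strand): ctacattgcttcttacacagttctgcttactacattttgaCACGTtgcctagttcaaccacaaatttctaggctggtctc
P4ha2 (chr11:54100806-54100885, plus strand): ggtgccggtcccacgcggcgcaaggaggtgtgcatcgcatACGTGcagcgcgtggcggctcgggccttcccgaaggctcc
Ero1l (chr14:45318596-45318675, minus strand): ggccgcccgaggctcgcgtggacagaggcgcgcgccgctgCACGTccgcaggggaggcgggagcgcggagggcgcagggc
Bnip3 (chr7:138909575-138909654, minus strand): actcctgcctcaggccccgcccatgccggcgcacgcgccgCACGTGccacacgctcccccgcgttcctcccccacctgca
In Bnip3 the core shown sits inside the palindrome CACGTG, Ldha has 2 such palindromes and a further core outside them, and Slc16a3 has a pair of cores on the plus strand.

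Nearly all of the genes were lower with Satb1 siRNA in the high experiment. Of the 34 tested, 31 were called lower and 1 (Pfkm) higher by edgeR's quasi-likelihood test (Benjamini-Hochberg adjusted p under 0.05 over all genes tested), and Hk2 and Gapdh were not called. With such near-identical repeats many genes passed, 33.2% of all 20242 tested lower and 32.8% higher. At a fold of at least 1.5, 11 members were called lower, where 8.61% of all genes were. The median log2 fold change of the members was -0.41, and that of all genes 0.011. Among genes with a mean of at least 10 CPM, a background added after the data were seen, 30 of 32 members were called lower (49.1% of all 8974 such genes), 1 higher (31.1%) and 11 lower by at least 1.5-fold (4.49%). The median of all genes at that level was -0.062.

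In the low experiment, where a fall of Satb1 was not detectable at this depth, most members were again lower. With TMM, a scaling for library composition, 24 of 33 had a more negative log2 value than in the high experiment. The share of all genes with a more negative value was not counted. The order of the medians depended on the scaling. With library size alone the member medians were -0.27 in the low experiment and -0.36 in the high one, beside all-gene medians of 0.29 and 0.065. Of 33 members, 20 were at least 1.5-fold lower with Satb1 siRNA, against 12.2% of all 13700 genes, and 0 were at least 1.5-fold higher, against 15.6%. The median log2 ratio was -0.63, and -0.059 over all genes. With scaling by library size alone, which moves the median of all genes to 0.29, 7 members were at least 1.5-fold lower, against 4.64% of all genes, the member median was -0.27, and 31 of 33 members stayed below the median of all genes. This experiment has 1 library per siRNA and so no test, and its intervals reflect counting error alone. They may be too narrow even for that, because reads copied by PCR are not independent. The shift with scaling is not in them either. A total of 31 members was below 0 in both experiments, as were 37.1% of all genes. Called lower in the high experiment and at least 1.5-fold lower in the low one were 19 of 33 members, against 6.21% of all genes.

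**Figure D1:**
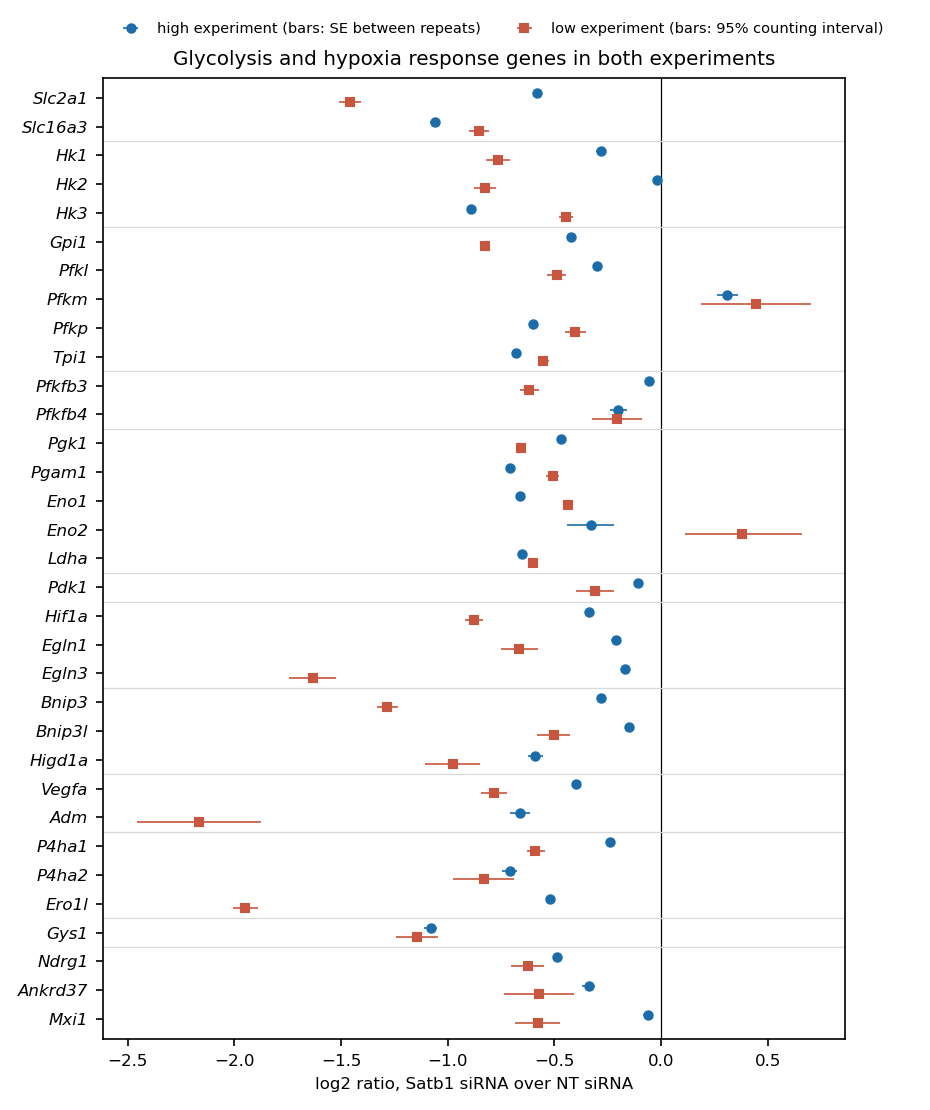
The log2 ratio of Satb1 siRNA over NT siRNA (x axis) is plotted for 33 genes in order of role. Circles are the high experiment and squares the low experiment (bars are the 95% counting interval). Bars of the circles are the SE of the log2 fold change from the edgeR fit, which the legend calls the SE between repeats. All genes but Pfkm and Eno2 have both points left of 0, and the squares of Adm, Ero1l and Egln3 lie farthest to the left.

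**Figure D2:**
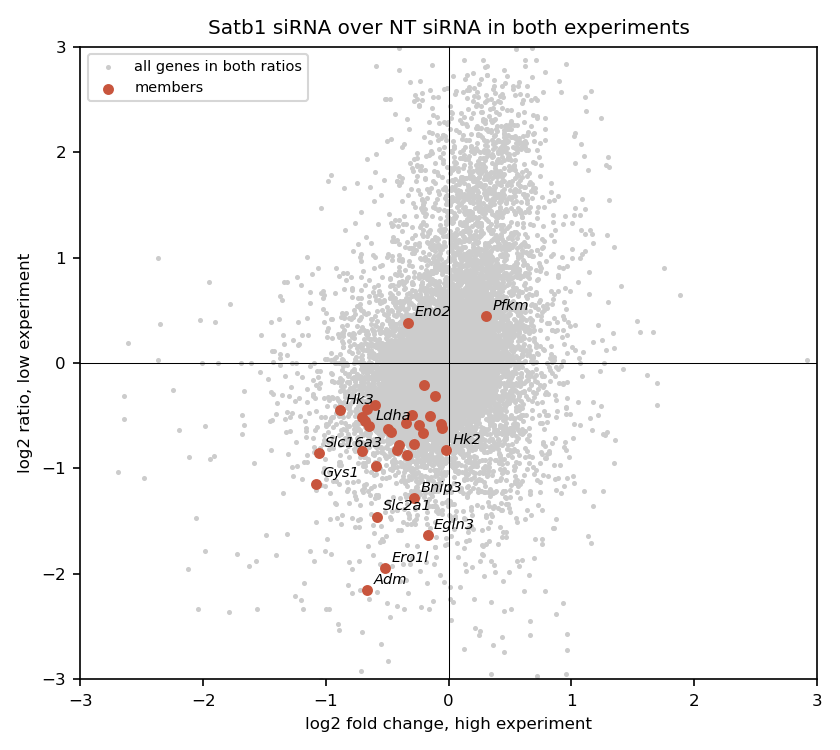
Each point is a gene, with its log2 fold change in the high experiment (x axis) against its log2 ratio in the low experiment (y axis), in grey for all 13700 genes and in red for the 33 members; 65 genes lie outside the axes. Members gather at the lower left, and Pfkm alone of the members is in the upper right.

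Fuel entry and lactate exit come first. Slc2a1 encodes the glucose carrier GLUT1. By FPKM (the authors' reads per length and depth) it made up 93.5% and 93% of the sum of Slc2a1, Slc2a3 and Slc2a6 in the high NT libraries, and 55.1% in the low NT library, where Slc2a6, another glucose carrier gene, held 44%. Its level was 211 and 210 CPM in the high experiment's NT libraries, 142 and 138 in its Satb1 siRNA libraries, 530 in the low experiment's NT library and 193 in its Satb1 siRNA library (CPM after TMM, a scaling for library composition, over 6 libraries, as are all CPM of single genes and marker sums here). The NT values lay above the Satb1 siRNA values in both experiments. The log2 fold change in the high experiment was -0.58 (SE 0.017, edgeR adjusted p = 3.38e-44), and the low ratio was 0.364 (95% counting interval 0.351 to 0.377), or 2.75-fold lower. The low Satb1 siRNA level of Slc2a1 lay between the high NT and high Satb1 siRNA levels.

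Slc16a3 encodes MCT4, which exports lactate. It had 142 and 141 CPM in the high experiment's NT libraries, 69.6 and 65.7 in its Satb1 siRNA libraries, 513 in the low experiment's NT library and 284 in its Satb1 siRNA library. Its log2 fold change was -1.06 (SE 0.023, edgeR adjusted p = 9.8e-51), and the low library was 1.81-fold lower. Slc16a1, the gene of the related carrier MCT1, was not called in the high experiment (log2 fold change -0.0056, edgeR adjusted p = 0.826). By FPKM the Slc16a3 share of the pair was 72.7% and 72.1% in the high experiment's NT libraries and 56.6% and 55.3% in its Satb1 siRNA libraries. It was 96.7% and 94.4% in the NT and Satb1 siRNA libraries of the low experiment.

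Hexokinases phosphorylate incoming glucose, and the members of this family did not move alike in the high experiment. Hk3, the form typical of myeloid cells, had 187 and 186 CPM in the high experiment's NT libraries and 101 and 99.5 in its Satb1 siRNA libraries, and 811 and 595 CPM in the NT and Satb1 siRNA libraries of the low experiment. Its log2 fold change was -0.89 (SE 0.019, edgeR adjusted p = 3.51e-52). Hk1, the housekeeping form, fell less, by 0.28 on the log2 scale. Hk2, a well-known HIF target, had 213 and 213 CPM in the high NT libraries against 212 and 208, with a log2 fold change of -0.021 (SE 0.015, edgeR adjusted p = 0.207).
The order was different in the low experiment, where Hk2 was 1.77-fold lower, from 431 to 243 CPM, and Hk3 1.36-fold lower. The Hk3 share of the hexokinase FPKM was 49.7% and 49.9% in the high experiment's NT libraries, 36.5% and 36.5% in its Satb1 siRNA libraries, 62.6% in the low experiment's NT library and 68.2% in its Satb1 siRNA library. It therefore moved in opposite directions in the experiments, and the difference was not tested.

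**Figure D3:**
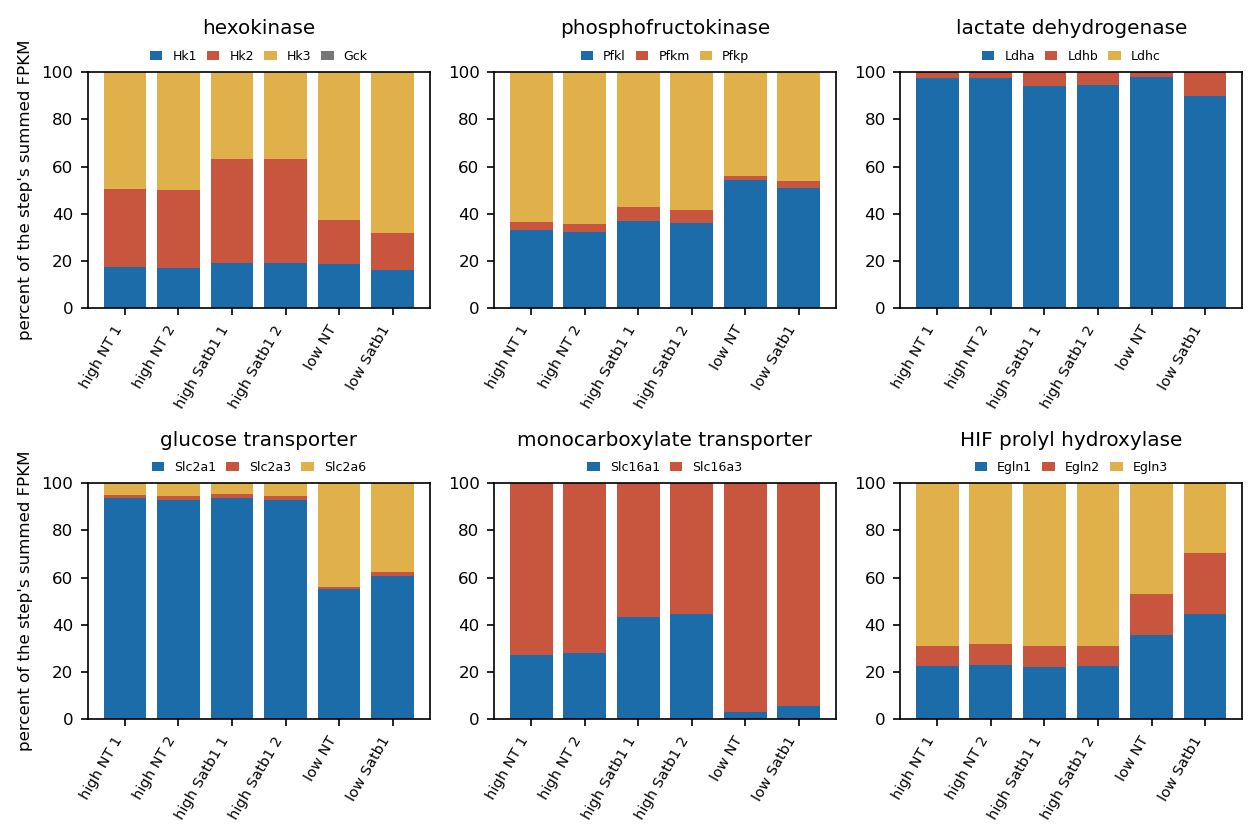
Bars show each gene's percent of the summed FPKM of its step in each of the 6 libraries (y axis, percent), for hexokinase, phosphofructokinase, lactate dehydrogenase, glucose transporter, monocarboxylate transporter and HIF prolyl hydroxylase genes. The Hk3 share is 49.7% and 49.9% in the high NT libraries and 36.5% in both high Satb1 siRNA libraries, and the Ldhb share is larger with Satb1 siRNA in both experiments.

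In upper glycolysis, 4 of 5 tested genes were called lower in the high experiment, where 33.2% of all genes were (49.1% at 10 CPM or more). Gpi1, which turns glucose 6-phosphate into fructose 6-phosphate, had 598 and 598 CPM in the high NT libraries against 446 and 443, a log2 fold change of -0.42 (SE 0.0057). Tpi1, triosephosphate isomerase, had 394 and 393 CPM against 246 and 243, a log2 fold change of -0.68 (SE 0.0095). Gpi1 went from 2030 to 1147 CPM and Tpi1 from 1355 to 924 in the low experiment. Both genes had the NT libraries above the Satb1 siRNA libraries in each experiment.

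Phosphofructokinase, the committing step, is built from the products of Pfkl, Pfkm and Pfkp. Pfkp, the platelet form, fell by 0.60 on the log2 scale and Pfkl, the liver form, by 0.30, while Pfkm, the muscle form, rose. Pfkm had 12.5 and 12.1 CPM in the high experiment's NT libraries and 15.6 and 14.8 in its Satb1 siRNA libraries, a log2 fold change of 0.31 (SE 0.05, edgeR adjusted p = 1.94e-07). Likewise, the low experiment had 10.9 CPM with NT siRNA and 14.9 with Satb1 siRNA, with a ratio of 1.36 (95% counting interval 1.14 to 1.63), and it was the only one of the 33 members besides Eno2 above 1. Pfkm was a small part of the family by FPKM, at 1.65% to 6.01% over the 6 libraries.

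Pfkfb3 and Pfkfb4 make and break fructose 2,6-bisphosphate, the activator of phosphofructokinase. Pfkfb3 had 120 and 121 CPM in the high NT libraries against 114 and 116, a log2 fold change of -0.056 (SE 0.02, edgeR adjusted p = 0.0134). That call was lost when replicate 1 of the high Satb1 siRNA group was left out (edgeR adjusted p = 0.178). Pfkfb3 went from 525 to 342 CPM in the low experiment, 1.53-fold lower. Pfkfb4 fell by 0.20 on the log2 scale in the high experiment, and its low ratio was 0.866 (95% counting interval 0.798 to 0.939). The direction of the low ratio turned with library size alone, to a log2 ratio of 0.15.

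The enzymes of lower glycolysis included the most abundant members, and 5 of the 6 tested were called lower in the high experiment. The gene not called was Gapdh, whose row is discussed below. Of all genes tested 33.2% were called lower, and of those of at least 10 CPM 49.1%. Ldha, which turns pyruvate into lactate, was highest of the members by FPKM, at 797.89 and 794.78 in the high NT libraries. Its level was 1187 and 1183 CPM in the high experiment's NT libraries, 752 and 756 in its Satb1 siRNA libraries, and 2785 and 1835 in the NT and Satb1 siRNA libraries of the low experiment. The groups did not overlap, and the log2 fold change was -0.65 (SE 0.003, edgeR adjusted p = 4.3e-96), with the low library 1.52-fold lower. Ldhb, whose product favours the reverse reaction, rose instead, by 0.64 on the log2 scale (SE 0.034, edgeR adjusted p = 8.98e-28). Its low level was 46.2 CPM with NT siRNA and 165 with Satb1 siRNA. The Ldhb share of the lactate dehydrogenase FPKM was 2.45% and 2.44% in the high NT libraries against 5.81% and 5.71%, and 2.06% against 10.2% in the low experiment.

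Eno1, the main enolase gene of these cells, had 729 and 730 CPM in the high experiment's NT libraries and 460 and 458 in its Satb1 siRNA libraries, a log2 fold change of -0.66 (SE 0.0049). Pgam1, phosphoglycerate mutase, had 568 and 574 CPM against 352 and 346, a log2 fold change of -0.71 (SE 0.0073). Pgk1, phosphoglycerate kinase, had 880 and 885 CPM against 627 and 643, a log2 fold change of -0.47 (SE 0.009). With TMM scaling all 3 genes were lower in the low experiment too, Eno1 by 1.35-fold, Pgam1 by 1.42-fold and Pgk1 by 1.58-fold. Their log2 ratios were -0.44, -0.51 and -0.66, and with library size alone -0.08, -0.15 and -0.30. Processed copies of these genes, and of Ldha and Tpi1, exist in the mouse genome, so part of their reads may have been assigned to other rows.

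Eno2, the neuronal enolase gene, was rare, with 134 to 279 counts per library. It was called lower in the high experiment (log2 fold change -0.33, SE 0.11, edgeR adjusted p = 0.00965), and the call was lost without replicate 2 of the high NT group (edgeR adjusted p = 0.214) and without replicate 1 of the high Satb1 siRNA group (0.211). Its low ratio was 1.3 (95% counting interval 1.08 to 1.58). Gapdh and Aldoa, which most cells express at high levels, had 7 to 24 and 2 to 15 counts in the deposited table, while Eno1 of the same pathway had 25623 to 56931. These rows are not taken as a measure of Gapdh or Aldoa, and the cause was not tested. The Gapdh row had a log2 fold change of -0.80 (SE 0.4, edgeR adjusted p = 0.0709).

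Pdk1 encodes a kinase that blocks pyruvate entry into mitochondria. It had 145 and 144 CPM in the high NT libraries against 132 and 135, a log2 fold change of -0.11 (SE 0.019, edgeR adjusted p = 1.32e-06), and went from 115 to 92.6 CPM in the low experiment. Pdk1 was thus among the members with the smallest differences in both experiments, and with library size alone its low log2 ratio turned to 0.045.

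**Figure D4:**
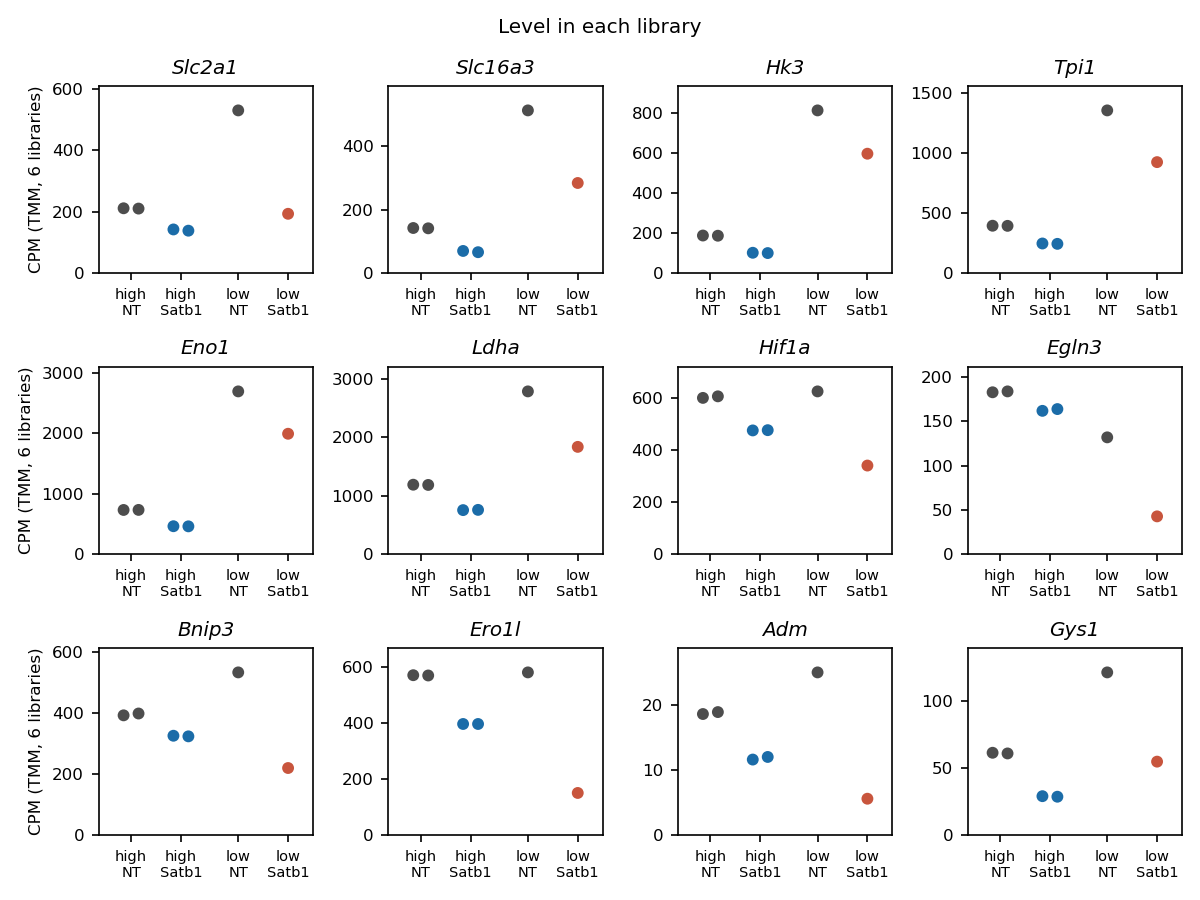
The level of 12 members in each library (y axis, CPM scaled by TMM over 6 libraries; grey for NT siRNA, blue and red for Satb1 siRNA in the high and low experiment). Eno1, Ldha and Hk3 are higher in the low NT library than in the high NT libraries, while Hif1a and Ero1l are at about the same level there under this scaling (with library size alone their log2 ratios were -0.58 and -0.60), and every NT point is above the Satb1 siRNA points of its experiment.

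All 3 oxygen-sensing members were called lower in the high experiment, by modest amounts. Of all genes 33.2% were called lower, and of those of at least 10 CPM 49.1%. Hif1a had 600 and 606 CPM in the high experiment's NT libraries, 475 and 476 in its Satb1 siRNA libraries, 625 in the low experiment's NT library and 340 in its Satb1 siRNA library. Hif1a had a log2 fold change of -0.34 (SE 0.0058, edgeR adjusted p = 1.8e-50) and a low ratio of 0.544 (95% counting interval 0.529 to 0.56). These values are transcript levels, and the HIF-1 alpha protein is controlled largely by its breakdown, which RNA does not show.

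Egln1 and Egln3 encode the prolyl hydroxylases PHD2 and PHD3, which mark HIF alpha and are themselves HIF targets. Egln3 had 183 and 184 CPM in the high NT libraries against 162 and 164, a log2 fold change of -0.17 (SE 0.017, edgeR adjusted p = 1.7e-14). From 132 to 42.6 CPM, it was 3.1-fold lower in the low experiment. Egln1 fell by 0.21 on the log2 scale in the high experiment and was 1.58-fold lower in the low one. The Egln3 share of the 3 prolyl hydroxylase genes by FPKM was 68.2% to 69.1% in the 4 high libraries, and 47% and 29.8% in the NT and Satb1 siRNA libraries of the low experiment.

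Bnip3 and Bnip3l encode receptors that mark mitochondria for removal, and Higd1a a hypoxia-induced protein of the respiratory chain. Bnip3 had 393 and 399 CPM in the high experiment's NT libraries, 326 and 324 in its Satb1 siRNA libraries, 534 in the low experiment's NT library and 220 in its Satb1 siRNA library. Bnip3 thus fell by 0.28 on the log2 scale (SE 0.009, edgeR adjusted p = 1.68e-32), and the low library was 2.43-fold lower. Higd1a fell by 0.59 on the log2 scale and was 1.97-fold lower in the low experiment. Bnip3l fell by 0.15 on the log2 scale and was 1.42-fold lower.

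Adm encodes adrenomedullin, a vessel-widening peptide. It had 18.6 and 18.9 CPM in the high experiment's NT libraries, 11.6 and 12 in its Satb1 siRNA libraries, 25 in the low experiment's NT library and 5.58 in its Satb1 siRNA library, the lowest of all 6. The log2 fold change was -0.66 (SE 0.048, edgeR adjusted p = 1.86e-20), and the low ratio of 0.223 (95% counting interval 0.182 to 0.273), from 478 and 124 counts, was the smallest of the 33 members.

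Vegfa, the vessel growth factor, had 188 and 188 CPM in the high NT libraries against 142 and 141, a log2 fold change of -0.40 (SE 0.017, edgeR adjusted p = 2.36e-33), and went from 285 to 166 CPM in the low experiment. The tumour line carries Vegf-a, so reads from tumour cells could count toward this gene. Defb29, the other gene the line carries, was at 1.41 and 1.45 CPM in the high experiment's NT libraries, 1.61 and 1.82 in its Satb1 siRNA libraries, and 1.57 and 5.58 in the NT and Satb1 siRNA libraries of the low experiment. The Defb29 difference in the high experiment was not called (edgeR adjusted p = 0.105), and the part of tumour cells in the Vegfa values was not tested.

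P4ha1 and P4ha2 encode collagen prolyl hydroxylases and Ero1l an oxidase that forms disulfide bonds in the endoplasmic reticulum. Ero1l had 570 and 569 CPM in the high experiment's NT libraries, 396 and 396 in its Satb1 siRNA libraries, 580 in the low experiment's NT library and 150 in its Satb1 siRNA library. The log2 fold change was -0.52 (SE 0.0061, edgeR adjusted p = 2.52e-69) and the low library was 3.86-fold lower. With TMM scaling the NT levels of the experiments were close, and the low Satb1 siRNA library stood below all the others. P4ha2 fell by 0.71 on the log2 scale and P4ha1 by 0.24, and they were 1.78-fold and 1.5-fold lower in the low experiment.

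Gys1, muscle-type glycogen synthase, had the most negative log2 fold change of all members in the high experiment. It had 61.2 and 60.7 CPM in the high experiment's NT libraries, 28.9 and 28.5 in its Satb1 siRNA libraries, 121 in the low experiment's NT library and 54.6 in its Satb1 siRNA library. The log2 fold change was -1.08 (SE 0.029, edgeR adjusted p = 1.51e-45), or 2.11-fold lower, and the low library was 2.21-fold lower. Its low Satb1 siRNA level lay between the high NT and high Satb1 siRNA levels.

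Ndrg1, a stress-response gene, fell by 0.49 on the log2 scale in the high experiment and was 1.54-fold lower in the low one. Ankrd37, an ankyrin repeat gene induced by hypoxia, fell by 0.34 and was 1.49-fold lower. Mxi1, a Max partner that opposes Myc, had 88.3 and 89.3 CPM in the high NT libraries against 84.5 and 85.3, a log2 fold change of -0.061 (SE 0.023, edgeR adjusted p = 0.0153). The Mxi1 call was lost without replicate 2 of the high NT group (edgeR adjusted p = 0.0504) and without replicate 1 of the high Satb1 siRNA group (0.132). In the low experiment Mxi1 was 1.49-fold lower, from 87.6 to 58.7 CPM.

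The transport and glycolysis genes and the other members differed in where their values lay. Transport and glycolysis members had a median log2 fold change of -0.53 in the high experiment and a median log2 ratio of -0.55 in the low one. The other members, Pdk1 and those from oxygen sensing to Mxi1, had medians of -0.34 and -0.81. In the low experiment 12 of 16 of the latter were at least 1.5-fold lower and 8 of 17 of the former, against 12.2% of all genes. These counts are for TMM scaling. With library size alone 7 of all 33 members were that much lower, against 4.64% of all genes, so the counts depend on the scaling. Across the 33 members the log2 values of the experiments had a Pearson r of 0.32, and 0.27 across all 13700 genes, as a description over genes, which are not independent. Members with ACGTG in a promoter window had medians of -0.37 and -0.76, and the 10 tested members with a window but no ACGTG had -0.51 and -0.46. Called at least 1.5-fold lower in the high experiment were 6 members with ACGTG and 5 without. This split was made with the values known and has no test.

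The NT libraries of the experiments differed as well. Of 33 members, 20 were at least 1.5-fold higher in the low NT library than in the mean of the high NT libraries, against 35.9% of all genes, and 0 were at least 1.5-fold lower, against 31.8%. The median log2 ratio was 0.99, and 0.073 over all genes. With library size alone 12 members were at least 1.5-fold higher, against 21.2% of all genes, and 8 at least 1.5-fold lower, against 49%. The member median was then 0.36, and the median of all genes -0.56. With TMM scaling, 16 of 17 transport and glycolysis members were at least 1.5-fold higher, with a median of 1.60. Of the other members 4 of 16 were, with a median of 0.23. Pfkfb3 was 4.37-fold, Hk3 4.35-fold and Hk1 3.87-fold higher in the low NT library, while Hif1a was at 1.04-fold and Ero1l at 1.02-fold. The last values depend on the scaling, since with library size alone the log2 ratio of Hif1a was -0.58 and that of Ero1l -0.60. Since the experiments have 1 NT sample each, experiment and control level cannot be told apart, and these ratios share the low NT library with the low experiment's ratios.

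Genes of related pathways, from lists made for comparison, had medians nearer to 0. Their counts of calls stand beside 33.2% lower and 32.8% higher over all genes tested, and 49.1% and 31.1% among genes of at least 10 CPM. Of 26 other glycolysis and pyruvate genes tested in the high experiment, edgeR called 12 lower and 5 higher, and the median was -0.073; the lower share is close to that of genes of at least 10 CPM. Pdk3, another pyruvate dehydrogenase kinase, fell by 0.45 on the log2 scale. Of 41 other HIF pathway and hypoxia genes, 26 had lower calls and 6 higher ones, and the median was -0.18. P4hb, the partner of P4ha1 and P4ha2, fell by 0.65 on the log2 scale. Both lists had medians in the low experiment nearer to 0 than the members' -0.63, at -0.19 and -0.26.

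In the pentose phosphate pathway edgeR called 8 of 11 genes lower and 1 higher, with G6pdx, its first enzyme, down by 0.48 and Taldo1 by 0.36. In the tricarboxylic acid cycle 13 of 17 were called lower and 2 higher; the median was -0.20 in the high experiment and -0.042 in the low. Mdh2, malate dehydrogenase, fell by 0.51 in the high experiment and had a log2 ratio of 0.18 in the low one. Sdhc fell by 0.50 in the high experiment and had a log2 ratio of -0.082 in the low one. Among 15 glycogen genes it called 8 lower and 4 higher, with Pgm2 at -0.71 and the branching enzyme gene Gbe1 at -0.40; Gys1 is on this list too. Among 9 mTORC1 and Myc regulators it called 5 lower and 2 higher, with Mxd1 at -0.70 and Max at -0.37. The counts of the glycogen list and of the regulators are near those shares, and nothing is read from them.

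Markers of other cells and of handling moved between the same libraries. The 10 immediate early and dissociation stress genes, which tissue handling induces, were all called lower in the high experiment, with a summed level of 1479 and 1471 CPM in the NT libraries against 959 and 945, and of 2918 against 1577 in the low experiment. Neutrophil markers, 8 of 9 in the table, summed to 95.7 to 106 CPM in the high libraries and to 686 and 292 in the NT and Satb1 siRNA libraries of the low experiment. The 13 tumour, epithelial and mesothelial markers summed to 952 and 955 CPM in the high experiment's NT libraries, 1056 and 1047 in its Satb1 siRNA libraries, and 209 and 737 in the low ones. Macrophage markers, 13 of 14 in the table, summed to 4707 to 4893 CPM in the high libraries and to 11082 and 6770 in the low ones, and the 11 dendritic cell markers to 371 and 371 against 267 and 266, and to 2385 and 2516. Monocyte markers summed to 2673 and 2677 CPM against 3613 and 3608 in the high experiment, and to 3378 against 2048 in the low one. Most of the monocyte sum in the high experiment was F13a1, at 2047 and 2052 CPM against 2728 and 2723, while Plac8 fell. Markers of a list went both ways in the high experiment. Of macrophage markers 4 were called lower and 8 higher, of dendritic cell markers 6 and 5, and of monocyte markers 2 and 3. Over all genes tested the shares were 33.2% and 32.8%. B cell markers summed to 16.8 and 16.5 CPM against 31 and 29.4, and to 33.7 against 22.2. No marker was at 0 in every library. The part of these shifts in the members' values was not tested.

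Merging the near-identical repeats leaves 1 sample per siRNA in each experiment. With the repeats summed and experiment as a term, edgeR called 0 members, with a smallest adjusted p of 0.123. Of all genes, it called 6 lower and 0 higher. In that fit 22 members had an unadjusted edgeR p under 0.05. The share of all genes under that unadjusted threshold was not counted, so nothing is read from the 22. DESeq2 in the same design, added after the data were seen, called Slc2a1, Slc16a3, Adm, Ero1l and Gys1 lower and 0 higher, with 135 of all genes called lower and 85 higher. The member median in the edgeR fit, which took in both experiments, was -0.56.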

How the data were processed

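Gene-level values came from a single table of 6 RNA-seq libraries of total RNA. The deposited counts were taken as estimated counts, since the submitters' processing notes name RSEM 1.2.12, DESeq2 and the mouse build mm9; they were already whole numbers. The authors also deposited FPKM, relative to gene length and library size, used here for shares and per-length levels. Libraries were made with a stranded total RNA kit, per the labels' protocols. The sources used here do not name the aligner or the use of strand. Genes of the high experiment were tested with edgeR 4.0.16 in R 4.3.3 (quasi-likelihood, robust, TMM, filterByExpr by group, two-sided, Benjamini-Hochberg over all genes tested, threshold 0.05). Each SE is the absolute log2 fold change divided by the square root of the F statistic of that test. Other ratios are differences of log2 CPM (prior count 2, TMM over 6 libraries) among genes whose mean log2 CPM reached 0, and called means past 1.5-fold. A count of 0 allows 3 counts, or 0.0421 to 0.122 CPM of the unscaled totals. FPKM folds used a pseudocount of 0.1. All 35 members are named, and of each companion list the 2 genes with the smallest edgeR p, of which 1 is not reported here; Slc16a1, Defb29 and isoform partners were named besides. The promoters of Slc2a1, Ero1l and Bnip3 were picked with their values in view, the other printed promoters by size of change among members with ACGTG. Members and lists were chosen with earlier results of these data known. The edgeR fit was tested on simulated counts, where large changes were all recovered and small ones not all. Alternatives were DESeq2 1.42.0, other scalings and filters, a replicate block, leaving out each repeat and summing repeats. Same-numbered repeats deviated with a correlation of -0.0411, so numbers were not treated as pairs.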

Additional observations from a re-analysis of the deposited data

Results flagged for a closer look

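Eno2 and Mdh2 moved in opposite directions in the experiments. The Eno2 log2 ratio in the low experiment was 0.38, with a log2 fold change of -0.33 in the high one. The Mdh2 log2 ratio in the low experiment was 0.18, with -0.51 in the high one. Neither difference was tested.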

How the results depend on the processing

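In the high experiment, the replicate block on repeat number left 31 members called lower and 1 higher, and no member's call changed, although the numbers did not pair the samples. With repeats summed and experiment as a term, edgeR gave 0 members lower, 0 higher and 0 lower by at least 1.5-fold, and DESeq2 in that design gave 5, 0 and 5; the member medians were -0.56 and -0.57. With library size alone 2 members were called higher, the second being Hk2 (log2 fold change 0.033, edgeR adjusted p = 0.0307), and Pfkfb3 and Mxi1 lost their calls (edgeR adjusted p = 0.932 and 0.806). Leaving out a repeat gave 1 to 2 members called higher. The member median was -0.36 with library size alone, -0.37 with a mean CPM of at least 1 and -0.35 with the authors' FPKM. At that filter Pfkfb3 and Mxi1 were not called (edgeR adjusted p = 0.21 and 0.183), and with DESeq2 Eno2 and Mxi1 were not (adjusted p = 0.136 and 0.0522). With FPKM, Eno2 changed direction to 0.071 and Mxi1 to 0.037. The fits with repeats summed took in both experiments, so their counts, medians and Eno2 values are not those of the high experiment alone. In these fits Eno2 was at 0.024 (edgeR) and 0.012 (DESeq2), beside -0.33 in the high experiment and 0.38 in the low one.

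In the low experiment, 7 members were at least 1.5-fold lower with library size alone and 7 with FPKM, where 4.64% and 3.89% of all genes were. The member median was -0.27 with library size alone, -0.69 with RLE size factors and -0.27 with FPKM. Between the NT libraries, 12 members were at least 1.5-fold higher with library size alone and 12 with FPKM, with medians of 0.36 and 0.35. There 7 of 33 members changed sign with library size alone (Hif1a to -0.58, Bnip3 to -0.20, Vegfa to -0.028, Adm to -0.21, P4ha1 to -0.18, P4ha2 to -0.18 and Ero1l to -0.60). With FPKM the same 7 did, Vegfa to -0.51 and Hif1a to -0.72, and Pfkp to -0.30; with RLE size factors only Mxi1 did, to 0.013. In the low experiment Pfkfb4 and Pdk1 changed sign with library size alone (0.15 and 0.045) and FPKM (0.13 and 0.077), and Pfkp with FPKM (0.024). The causes of these shifts were not tested. Eno2 has few counts, which limits its precision; why the Gapdh and Aldoa rows are low was not tested.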
